A study of Sus scrofa with 18 samples.

Results

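DUSP5, DUSP10, SPRY1 and SPRED1 are feedback inhibitors of MAP kinase signalling, and their transcripts were followed through a time course of all-trans retinoic acid (ATRA) in LLC-PK1 cells. The genes were taken as a named set, and every probe set that the array annotation gives to them alone was taken. Each gene had exactly 1 such probe set, so the set is 4 genes of the 12361 named on the array and 4 probe sets of 27558. No other probe set on the array had the same 18 values as any of the 4.

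LLC-PK1 is a pig kidney epithelial line, given in the labels as male and of the Hampshire breed, and ATRA is the form of vitamin A that binds the nuclear retinoic acid receptors. The cells were grown past confluence, and RNA was taken with no ATRA (0 h) and after 0.5, 1, 4, 8 and 12 h with it, with 3 biological replicates per time, which makes 18 arrays over 6 time points. All groups are the same line, and no source used here states the dose of ATRA. No untreated cells were sampled at the later times, so an effect of ATRA and an effect of time in culture or of adding medium cannot be told apart.

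The ERK cascade runs from growth factor receptors through Ras, Raf and MEK to the kinase ERK, which switches on early response genes, and some of those genes encode proteins that shut the cascade off again. DUSP5 is a phosphatase of the nucleus that acts on ERK, and DUSP10 (also called MKP5) is a phosphatase that acts chiefly on the stress kinases JNK and p38. SPRY1, a Sprouty protein, restrains the pathway between the receptor and Raf, and SPRED1 is a membrane protein that brings the Ras inhibitor neurofibromin (NF1) to Ras. In kidney development Sprouty1 is known as a brake on RET receptor signalling in the ureteric bud. Phosphorylated kinases were not measured here, and all values below are transcript signals.

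Each value is a deposited log2 signal, on which a difference of 1 is a doubling. Between arrays the lower quartile of all probe sets lay at 3.73 to 3.83, the median at 5.59 to 5.67 and the upper quartile at 7.79 to 7.86. Levels of different probe sets are not strictly comparable with each other, so the change of each gene was taken only against itself over time. Marker levels below are set beside those of other probe sets as a rough guide only. Arrays 2 and 3 of a time point correlated at 0.9923 to 0.9946 over all probe sets. Array 1 stood further from its partners at 4 h (0.984 and 0.9841) and 8 h (0.9824 and 0.9817). Of the renal and epithelial markers, 9 of 13 were measured. Their mean lay between 9.63 and 10.1 on every array, with members at percentiles from 63.7 (SLC34A1) to 99.3 (KRT8) of all probe sets. Single markers moved in both directions: the phosphate transporter SLC34A1 fell 1.85-fold by 4 h (adjusted p = 0.000753) and was lower at 8 and 12 h, and the endocytic receptor LRP2 was lower at 4 and 8 h. KRT8 was higher at 4 and 12 h, and the transcription factor HNF4A at 8 and 12 h (2.13-fold at 12 h, adjusted p = 0.00306). The endothelial list (4 of 5 measured) had array means of 3.40 to 3.78, and the leukocyte list (5 of 6) 4.89 to 5.29, where PTPRC was near 2.88 but CD3E near 7.80. The fibroblast list (7 of 7 measured) had array means of 4.99 to 5.08 at 0 h and 5.11 to 5.34 at the later times. Within it COL1A2 was high throughout at a mean of 11.8, while DCN, LUM and FAP lay between 2.14 and 3.13 on all arrays, and COL1A1 rose at 4 h by 0.93 (adjusted p = 0.00245 in limma). The part of these marker changes in the results below was not tested.

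All 4 inhibitors rose after ATRA, and at 12 h none of them was called different from 0 h. DUSP5 rose 3.99-fold by 0.5 h and 10.4-fold by 1 h, its highest mean. SPRY1 rose 2.86-fold at 1 h and was still 2.65-fold up at 4 h, and DUSP10 (5.42-fold) and SPRED1 (2.50-fold) had their highest means at 4 h. By the moderated F test in limma over all times, each of the 4 changed, with adjusted p of 7.97e-07 for DUSP5, 0.000853 for DUSP10, 0.000748 for SPRY1 and 0.000111 for SPRED1. Of all probe sets, 15.7% passed this test. A probe set is called changed here when its Benjamini-Hochberg adjusted p, taken over all 27558 in a comparison, is under 0.05, and errors are standard errors (SE) of the model with 3 arrays per time point.

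**Figure D1:**
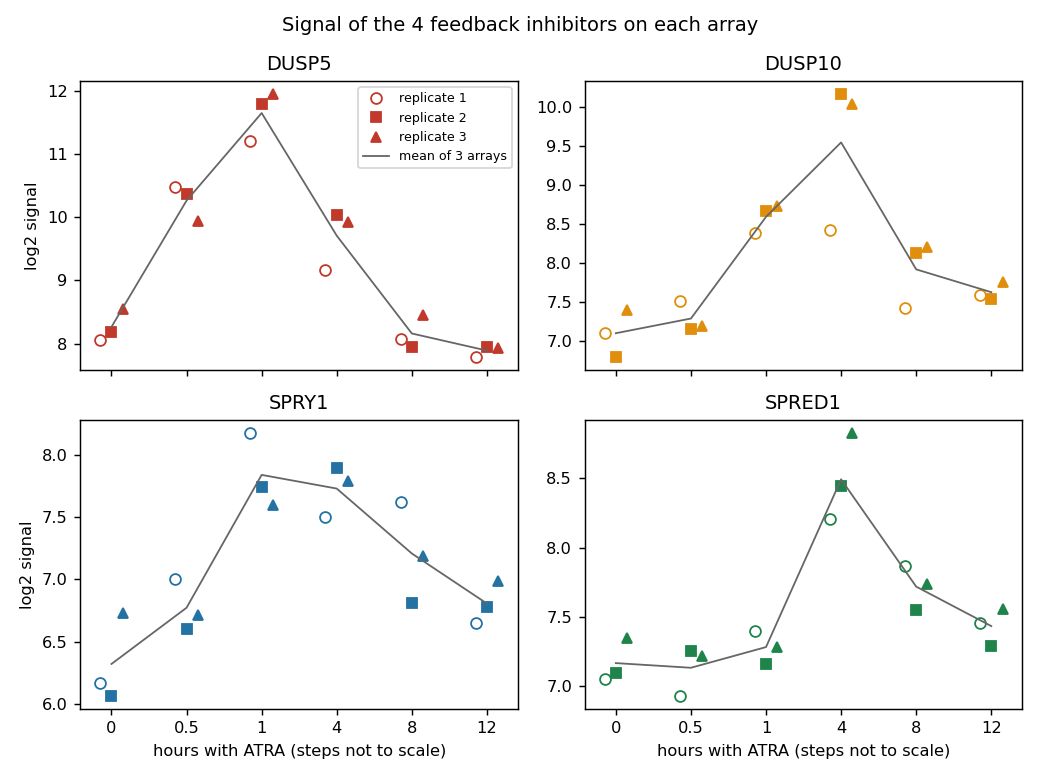
The log2 signal of each gene on each array against hours with ATRA, with open circles for replicate 1, squares for replicate 2, triangles for replicate 3 and a line through the means of 3 arrays. DUSP5 peaks at 1 h, SPRY1 is high at 1 and 4 h, and DUSP10 and SPRED1 peak at 4 h, where replicate 1 of DUSP10 lies at 8.43 against 10.16 and 10.04.

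DUSP5, the nuclear ERK phosphatase (probe set 15228428), had the largest change of the set. Its log2 signal was 8.06, 8.19 and 8.54 on the 3 arrays at 0 h and 10.48, 10.36 and 9.94 at 0.5 h. At 1 h it was 11.21, 11.79 and 11.94. Every array at 0.5 and 1 h lay above every array at 0 h, as in 5.14% and 5.98% of all probe sets. The 1 h arrays lay wholly above the 0.5 h arrays, as in 7.1%. At 4 h the signal was 9.16, 10.03 and 9.93, still wholly above 0 h, as in 13.8% of all probe sets. It was 8.07, 7.95 and 8.45 at 8 h, overlapping 0 h, and 7.79, 7.95 and 7.92 at 12 h. At 12 h all 3 arrays were below all 3 of 0 h, as in 14.2% of all probe sets, while 1.51% were called lower.

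In limma DUSP5 was higher at 0.5 h (3.99-fold, log2 change 2.00 ± 0.24, adjusted p = 0.000797) and at 1 h (10.4-fold, 3.38 ± 0.24, adjusted p = 7.8e-07). The 1 h rise ranked 6th among the 27558 probe sets. At 4 h DUSP5 was 2.72-fold above 0 h (1.44 ± 0.24, adjusted p = 0.000831). The 8 h difference of -0.10 had an adjusted p of 0.888. The lower signal at 12 h, 77.2% of the 0 h signal, was not called (-0.37 ± 0.24, adjusted p = 0.542). The call at 1 h held in every alternative that was run. Those at 0.5 and 4 h held without any single array but were lost when replicate 2 was left out at all times, with log2 changes of 1.91 (adjusted p = 0.23) and 1.24 (adjusted p = 0.114).

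SPRY1, the Sprouty protein (probe set 15321280), had a lower and broader peak. Its log2 signal was 6.17, 6.07 and 6.73 at 0 h and 7.01, 6.60 and 6.71 at 0.5 h, and these groups overlapped. At 1 h it was 8.17, 7.74 and 7.60 and at 4 h 7.50, 7.90 and 7.79, wholly above 0 h at both times. Of all probe sets, 5.98% lay wholly above 0 h at 1 h and 13.8% at 4 h. At 8 h the SPRY1 arrays read 7.62, 6.81 and 7.19, with replicate 1 the highest. They were also wholly above 0 h, as in 11.0% of all probe sets. At 12 h they read 6.65, 6.78 and 6.99 and overlapped the 0 h arrays again.

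SPRY1 rose by 1 h (2.86-fold, log2 change 1.52 ± 0.22, adjusted p = 0.00128) and was up at 4 h (2.65-fold, 1.41 ± 0.22, adjusted p = 0.000543). Its 1 and 4 h levels differed by -0.11 ± 0.22, with a 95% interval of -0.57 to 0.35. The 0.5 h difference of 0.45 was not called (adjusted p = 1.00), nor was that of 0.48 at 12 h (adjusted p = 0.32). At 8 h SPRY1 was 1.85-fold above 0 h (0.89 ± 0.22, adjusted p = 0.0238). This call was lost in 4 of 6 fits without 1 array. It was lost without 0 h replicate 1 (0.81, adjusted p = 0.0874), 0 h replicate 2 (0.76, adjusted p = 0.122), 8 h replicate 1 (0.68, adjusted p = 0.0829) or 8 h replicate 3 (0.90, adjusted p = 0.0702), and without replicate 1 at all times (0.60, adjusted p = 0.117). Leaving out replicate 2 at all times ended the calls at 1 h (1.44, adjusted p = 0.118) and 4 h (1.20, adjusted p = 0.0758).

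DUSP10, the JNK and p38 phosphatase (probe set 15201790), was near its starting level at 0.5 h and highest at 4 h. Its log2 signal was 7.11, 6.81 and 7.40 at 0 h and 7.52, 7.16 and 7.20 at 0.5 h, which overlapped. At 1 h it was 8.38, 8.66 and 8.73, wholly above 0 h, as in 5.98% of all probe sets. At 4 h it was 8.43, 10.16 and 10.04, where replicate 1 lay far under the other two arrays and the standard deviation was 0.965. At 8 h it was 7.42, 8.13 and 8.21, with replicate 1 again the lowest, and at 12 h 7.59, 7.54 and 7.76. All 3 arrays at 8 h and at 12 h were above all 3 at 0 h, as in 11.0% and 12.1% of all probe sets. Of all 27558 probe sets, 3.23% and 1.13% were called higher at these times.

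At 4 h DUSP10 was 5.42-fold above 0 h (log2 change 2.44 ± 0.34, adjusted p = 0.00025), the 10th highest change of the 27558 probe sets. Without replicate 1 of 4 h the change was 7.96-fold (log2 2.99), and without replicate 2 at all times the call was lost (1.98, adjusted p = 0.0782). The 1 h difference was 2.80-fold (1.49 ± 0.34) and fell just short of the threshold (adjusted p = 0.0624). It was called under the replicate block (adjusted p = 0.0348), in a fit of the 0 and 1 h arrays alone (adjusted p = 0.0159), with dim probe sets left out (adjusted p = 0.0479) and without replicate 1 at all times (1.60, adjusted p = 0.00142). At 8 h the difference of 0.82 ± 0.34 was not called (adjusted p = 0.203), but it was without replicate 1 at all times (1.07, adjusted p = 0.00842). The 12 h difference was 0.52 ± 0.34 (adjusted p = 0.559).

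SPRED1, the partner of neurofibromin (probe set 15195399), was near its starting level at 0.5 and 1 h. Its log2 signal was 7.05, 7.10 and 7.35 at 0 h, 6.93, 7.25 and 7.22 at 0.5 h and 7.40, 7.16 and 7.29 at 1 h. These 3 groups overlapped, and the differences from 0 h were -0.03 and 0.12 with 95% intervals of -0.35 to 0.29 and -0.20 to 0.44. At 4 h the arrays read 8.21, 8.44 and 8.82, wholly above every earlier array. They read 7.87, 7.55 and 7.74 at 8 h, above 0 h, and 7.46, 7.29 and 7.55 at 12 h, where they overlapped 0 h. Of all probe sets, 13.8% lay wholly above 0 h at 4 h and 11.0% at 8 h.

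SPRED1 rose 2.50-fold at 4 h (log2 change 1.32 ± 0.15, adjusted p = 5.23e-05), and this call held in every alternative that was run. At 8 h it was 1.47-fold above 0 h (0.55 ± 0.15, adjusted p = 0.0406). The 8 h call was lost without 0 h replicate 1 (0.49, adjusted p = 0.135), 0 h replicate 2 (0.52, adjusted p = 0.147), 8 h replicate 1 (0.48, adjusted p = 0.112) or 8 h replicate 3 (0.54, adjusted p = 0.113), and without replicate 1 at all times (0.42, adjusted p = 0.146). At 12 h the difference was 0.27 ± 0.15 (adjusted p = 0.468).

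**Figure D2:**
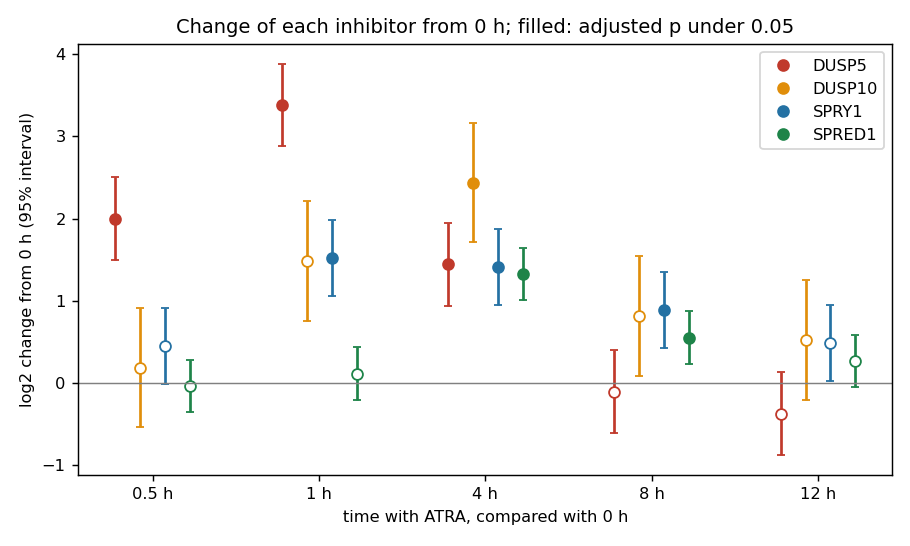
The log2 change of each gene from 0 h with its 95% interval at the 5 later times, filled where the adjusted p is under 0.05. At 1 h the interval of DUSP5 is 2.88 to 3.89 and that of SPRED1 -0.20 to 0.44, and at 4 h all 4 genes are filled.

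Counted over the set, 1 of 4 genes was called higher than 0 h at 0.5 h, when 0.196% of all probe sets were, and 2 of 4 at 1 h, when 0.689% were. At 4 h all 4 were called higher, against 6.31% of probe sets, and at 8 h 2 of 4 were, against 3.23%. At 12 h none of the 4 was called, while 1.13% of probe sets were called higher and 1.51% lower. No gene of the set was called lower than 0 h at any time. The genes were proposed with earlier results of these arrays in view, so these counts describe the set and are not an independent test of it. On linear scale, the 12 h difference from 0 h was 9.92% of the peak rise for DUSP10, 21.4% for SPRY1 and 13.5% for SPRED1. For DUSP5 it was -2.42%. None of these 12 h differences was called, so the percentages do not show a remaining rise.

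**Figure D3:**
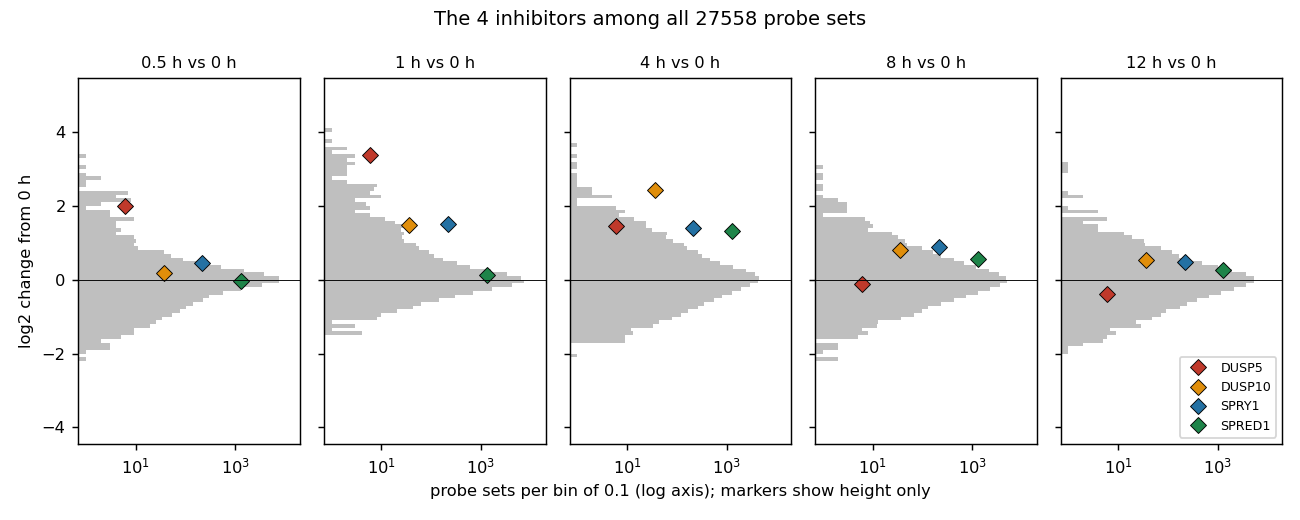
Grey bars count all 27558 probe sets by their log2 change from 0 h in bins of 0.1 (log axis), 1 panel per time, and the diamonds mark the change of the 4 genes by height only. DUSP5 lies at 3.38 at 1 h and DUSP10 at 2.44 at 4 h, both near the top of the distribution.

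The steps between neighbouring times show when each transcript moved. From 0.5 to 1 h DUSP5 rose a further 2.61-fold (log2 change 1.38 ± 0.24, adjusted p = 0.0161) and SPRY1 2.09-fold (1.07 ± 0.22, adjusted p = 0.04), 2 of 4 genes against 0.515% of probe sets called higher in this step. Under the replicate block, 221 probe sets in place of 142 were called higher here. The call of SPRY1 was lost without any 1 of the 6 arrays (highest adjusted p = 0.191), and that of DUSP5 without replicate 2 or 3 of 0.5 h (1.44 and 1.22, adjusted p = 0.0618 and 0.0722) or of 1 h (1.31 and 1.24, adjusted p = 0.0786 and 0.0866). The DUSP10 step of 1.30 ± 0.34 was not called (adjusted p = 0.14), and it was without replicate 1 at all times (1.52, adjusted p = 0.00754).

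From 1 to 4 h members moved in both directions. DUSP5 fell 3.84-fold (log2 change -1.94 ± 0.24, adjusted p = 0.000115), while SPRED1 rose 2.31-fold (1.21 ± 0.15, adjusted p = 0.000137). In this step 4.94% of probe sets were called lower and 5.68% higher. Both calls held without any array and without any replicate number. DUSP10 was 0.95 ± 0.34 higher at 4 h than at 1 h, which was not called (adjusted p = 0.0977). Without the 4 h array of replicate 1 the DUSP10 step was 1.51 (adjusted p = 0.000313).

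From 4 to 8 h 3 of the 4 genes fell, against 1.49% of probe sets called lower. DUSP10 fell 3.08-fold (log2 change -1.62 ± 0.34, adjusted p = 0.0171) and DUSP5 2.92-fold (-1.55 ± 0.24, adjusted p = 0.00396), the 9th and 12th lowest changes of this step. SPRED1 fell 1.71-fold (-0.77 ± 0.15, adjusted p = 0.0118). With the replicate block 890 probe sets in place of 411 were called lower. The call of DUSP5 held without any single array. That of DUSP10 was lost without 4 h replicate 2 (-1.31, adjusted p = 0.103), 4 h replicate 3 (-1.37, adjusted p = 0.0966) or 8 h replicate 1 (-1.37, adjusted p = 0.0792), and that of SPRED1 without 4 h replicate 2 (-0.80, adjusted p = 0.0516), 4 h replicate 3 (-0.61, adjusted p = 0.0602) or 8 h replicate 2 (-0.69, adjusted p = 0.0578). All 3 calls were lost without replicate 2 or without replicate 3 at all times (highest adjusted p = 0.549). The SPRY1 difference of -0.52 ± 0.22 was not called (adjusted p = 0.235) but was without replicate 1 at all times (-0.84, adjusted p = 0.0419).

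From 8 to 12 h none of the 4 genes was called, and neither was any other probe set in limma. The share called was 0% in both directions, also with the trended robust prior, although 1608 probe sets had an unadjusted p under 0.05. The 4 differences ran from -0.40 for SPRY1 to -0.27 for DUSP5, all toward lower signal.

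Across the 18 arrays, DUSP10 correlated with SPRY1 at r = 0.781 and with SPRED1 at 0.766, and DUSP5 correlated with SPRY1 at 0.586 and with DUSP10 at 0.438. SPRY1 and SPRED1 correlated at 0.567. DUSP5 and SPRED1 had an r of -0.0517. The arrays share their time points and replicate cultures, so these values are given as a description only.

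In the 8 pathway lists that follow, 42 changes of genes other than the 4 inhibitors were called against 0 h. Of these 42 calls, 37 were lost without replicate 2 at all times, 23 without replicate 3, 3 without replicate 1 and 17 in a fit of the 2 times alone, with 0 reversed in direction. The replicate block ended none of them. Only EGR1 at 0.5 and 1 h, HBEGF and SRF at 1 h and SPRED2 at 4 h kept their calls whichever replicate number was left out.

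The other MAP kinase phosphatases had 4 measured members, DUSP1, DUSP2, DUSP4 and DUSP7. DUSP1, a nuclear phosphatase of the stress kinases and ERK, was the only one of the 4 called against 0 h, at 0.5 h (3.17-fold higher, adjusted p = 0.0145) and at 1 h (3.95-fold higher, adjusted p = 0.00121). It had fallen 3.53-fold by 4 h (adjusted p = 0.000657 against 1 h), where it differed from 0 h by 0.17 (adjusted p = 0.805). The 0.5 h call of DUSP1 was lost in 4 of 6 fits without 1 array (highest adjusted p = 0.116), and that at 1 h in none of 6. DUSP7, a cytoplasmic ERK phosphatase, was lower by 0.39 at 1 h with an adjusted p of 0.157, and of 0.0456 with the replicate block. Under the block DUSP7 was also called lower at 8 h (-0.37, adjusted p = 0.013 with and 0.0523 without) and at 12 h (-0.33, adjusted p = 0.0353 with and 0.128 without). DUSP2 and DUSP4, nuclear phosphatases, had mean signals of 3.36 and 3.77 at 0 h, near the lower quartile of the arrays, and changes of at most 0.48 in size against 0 h. The median change of these 4 genes was 0.33 at 1 h against -0.02 over all 12361 genes. It lay between the changes of DUSP4 (0.28) and DUSP2 (0.39), neither of them called. Of all genes, 0.202% were called higher at 0.5 h and 0.777% at 1 h. DUSP6, DUSP8, DUSP9 and DUSP16 were not analysed here.

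All 5 other Sprouty and Spred genes were measured. SPRY2, another receptor pathway inhibitor, was higher at 1 h (2.40-fold, adjusted p = 0.000533) and at 4 h (2.00-fold, adjusted p = 0.000821), and SPRED2 rose 2.42-fold at 4 h (adjusted p = 0.000236). None of these 3 calls was lost without a single array. At 4 h 2 of the 5 were thus called higher, against 7.89% of all genes, and the median change of the 5 was 0.14. SPRED2 was 0.36 higher at 1 h (adjusted p = 0.823) and then rose from 1 to 4 h by 0.91 (adjusted p = 0.00317). From 4 to 8 h 3 of the 5 fell, SPRY2 by 0.78 (adjusted p = 0.0171), SPRED2 by 0.76 (adjusted p = 0.0279) and SPRED3 by 0.44 (adjusted p = 0.0297). In this step 1.80% of all genes were called lower. SPRED3 had not been called higher at 4 h (0.14, adjusted p = 0.457). No probe set was called in this step without replicate 2 or without replicate 3 at all times. The same held in the fit of the 2 times alone. SPRY3 and SPRY4 were not called in any comparison, with changes from 0 h of -0.22 to 0.16 and -0.09 to 0.12.

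**Figure D4:**
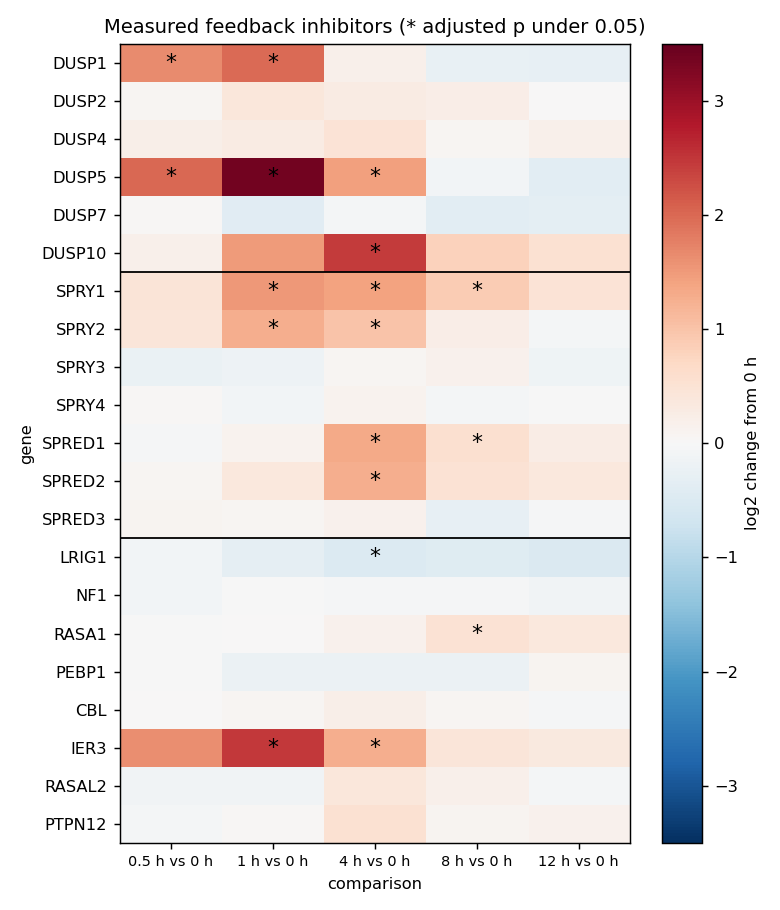
Log2 change from 0 h (colour) of every measured MAP kinase phosphatase, Sprouty or Spred protein and gene listed with other receptor or Ras inhibitors, with an asterisk where the adjusted p is under 0.05. DUSP1, DUSP5 and IER3 are red in the left columns, SPRED1 and SPRED2 are marked at 4 h, and the 12 h column holds no asterisk.

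Of 8 measured genes listed with other receptor and Ras inhibitors, IER3 changed most. IER3, an early response protein tied to ERK activity and not taken here as an inhibitor, was higher at 1 h (5.56-fold, adjusted p = 0.000575) and at 4 h (2.44-fold, adjusted p = 0.0153). The second call of IER3 was lost in 4 of 6 fits without 1 array (highest adjusted p = 0.0863). Its 0.5 h difference of 1.61 had an adjusted p of 0.065, and of 0.000835 with the replicate block. The receptor inhibitor LRIG1, a dim probe set at 3.09 at 0 h, was 1.39-fold lower at 4 h (adjusted p = 0.0365), and the Ras GTPase activator RASA1 was 1.42-fold higher at 8 h (adjusted p = 0.0418). Each of these 2 calls was lost in 5 of 6 fits without 1 array (highest adjusted p = 0.142 for both). NF1, the Ras inhibitor that SPRED1 recruits, was not called at any time, with differences of -0.12 to -0.02 from 0 h. With the replicate block RASAL2 (0.39, adjusted p = 0.00503) and PTPN12 (0.53, adjusted p = 0.00873) were called higher at 4 h as well. That made 3 of 8 in place of 1 of 8, and IER3 is in both counts. Of all genes, 10.8% were called higher with the block and 7.89% without it. Without replicate 1 at all times the count was also 3 of 8, IER3 included, against 10.4% of all genes.

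Among 12 measured growth factors that act on the pathway, HBEGF, a ligand of the EGF receptor family, rose by 0.5 h (2.44-fold, adjusted p = 0.00136) and was highest at 1 h (5.44-fold, adjusted p = 3.78e-07). It was 1.52-fold up at 4 h (adjusted p = 0.0203), which did not hold in 4 of the 6 fits that left out an array (highest adjusted p = 0.0935). EREG, another ligand of that family, rose 2.31-fold at 1 h (adjusted p = 0.000711). BTC fell 1.61-fold at 4 h (adjusted p = 0.00221), and FGF7 was 1.48-fold lower (adjusted p = 0.0135), which did not hold in 2 of 6 such fits (highest adjusted p = 0.0781). FGF2 was 1.31-fold higher at 8 h (adjusted p = 0.0228), lost in 3 of 6 (highest adjusted p = 0.0949). Growth factors called higher were 2 of 12 at 1 h, against 0.777% of all genes, with a median change of 0.02.

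With all arrays, none of the 10 measured receptors was called higher at any time. Of all genes, 0.202% (0.5 h) to 7.89% (4 h) were called higher than 0 h. ERBB2 fell 1.87-fold at 4 h (adjusted p = 0.000998), and the insulin receptor INSR fell 1.91-fold at 4 h (adjusted p = 0.00017) and stayed 1.98-fold lower at 8 and at 12 h (adjusted p = 0.000462 and 0.000595). FGFR2 was 1.49-fold lower at 12 h (adjusted p = 0.0218), lost in 4 of 6 fits without 1 array (highest adjusted p = 0.118). At 4 h this made 2 of 10 receptors lower, against 8.53% of all genes, with a median change of -0.15. Without replicate 1 at all times 1 of 10 was called higher and 2 lower at 4 h, against 10.4% and 12.6% of all genes. EGFR was not analysed here.

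Of the 14 measured components of the Ras-ERK cascade itself, none was called higher than 0 h, where 0.202% (0.5 h) to 7.89% (4 h) of all genes were. GAB1, a docking protein between receptors and Ras, fell by 4 h (2.33-fold, adjusted p = 8.82e-05) and was also lower at 8 h (1.45-fold, adjusted p = 0.0427), the latter lost without any 1 of the 6 arrays (highest adjusted p = 0.165). The scaffold KSR1 was lower at 8 h (1.27-fold, adjusted p = 0.0302) and 12 h (1.38-fold, adjusted p = 0.0114), calls lost in 5 of 6 and 1 of 6 such fits (highest adjusted p = 0.109 and 0.0658). The median change of the 14 at 4 h was -0.11, against 0.01 over all genes, of which 8.53% were called lower. With the replicate block SOS2 was called lower at 4 h as well (-0.39, adjusted p = 0.0539 without and 0.0225 with the block). Without replicate 1 at all times 4 of the 14 were called lower at 4 h, against 12.6% of all genes.

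In the JNK and p38 cascade, on which DUSP10 acts, 10 members were measured. GADD45G, an activator of the kinase MAP3K4, was higher at 0.5 h (2.91-fold, adjusted p = 0.0372) and at 1 h (3.16-fold, adjusted p = 0.00728), lost in 5 of 6 and 2 of 6 fits without 1 array (highest adjusted p = 0.213 and 0.0574). Its 4 h difference of 0.66 was called with the replicate block (adjusted p = 0.00476) and not without it (0.167). MAP2K6, a p38 kinase kinase, fell by 4 h (2.35-fold, adjusted p = 0.000105) and was also lower at 8 h (1.46-fold, adjusted p = 0.0489), the latter lost in 5 of 6 such fits (highest adjusted p = 0.18). The other 8 were not called against 0 h, and the median change of the 10 was -0.11 at 4 h, against 0.01 over all genes. At 0.5 and 1 h 1 of 10 was called higher, against 0.202% and 0.777% of all genes. At 4 and 8 h 1 of 10 was called lower, against 8.53% and 3.58%.

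Of 11 measured early genes that are commonly read as ERK output, 4 were called higher at 0.5 h, 7 at 1 h, 2 at 4 h and none at 8 or 12 h, with median changes of 0.67, 1.60, 0.62, -0.14 and -0.19. Over all genes 0.202%, 0.777%, 7.89%, 4.33% and 1.52% were called higher at these times. EGR1, an early transcription factor, was higher at 0.5 h (6.54-fold, adjusted p = 3.61e-06) and at 1 h (8.18-fold, adjusted p = 2.74e-07), and FOS rose 10.2-fold at 0.5 h (adjusted p = 0.000129). IER2, called at 3.13-fold at 0.5 h (adjusted p = 0.0108), lost that call in 4 of 6 fits without 1 array (highest adjusted p = 0.0853). At 4 h EGR1 (1.64-fold, adjusted p = 0.0201) and MYC (2.54-fold, adjusted p = 0.0119) were still called, lost in 4 of 6 and 3 of 6 such fits (highest adjusted p = 0.0812 and 0.0678). With the replicate block the counts at 0.5, 1 and 4 h were 5, 10 and 8 of 11, against 0.251%, 0.995% and 10.8% of all genes. They were 5, 8 and 7 without replicate 1 at all times, 1, 2 and 0 without replicate 2, and 3, 5 and 0 without replicate 3. Without replicate 1, 0.186%, 0.858% and 10.4% of all genes were called higher at these times. The shares were 0.0324%, 0.146% and 0.793% without replicate 2, and 0.0971%, 0.324% and 2.18% without replicate 3. From 1 to 4 h 6 of the 11 fell, against 6.22% of all genes called lower, and DUSP5 fell in this step. These comparisons share their arrays, so the values stand side by side and no overlap was tested.

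For each inhibitor, the 3 genes whose signal correlated best with it over the 18 arrays were taken from 2367 genes that changed by the F test. For DUSP5 these were CYR61 (r = 0.984), EPHA2 (0.972) and RND3 (0.958). CYR61, a secreted matrix protein and a target of YAP, differed from 0 h by 2.54 at 0.5 h, 3.58 at 1 h and 1.62 at 4 h on the log2 scale. EPHA2, an ephrin receptor also on the ERK output list, differed by 1.43 at 1 h and RND3, an inhibitor of RhoA signalling, by 1.41.

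DUSP10 was most like the transcription factor ETS1 (r = 0.948), IMP3 (0.925) and the signalling adaptor BCL10 (0.916), which differed from 0 h at 4 h by 1.36, 0.70 and 0.46. SPRY1 was most like the mitochondrial carrier SLC25A33 (r = 0.913), the BMP pathway inhibitor SMAD6 (0.89) and a probe set annotated to MIR18A (0.86). At 8 h SMAD6 was 0.54 above 0 h, where SPRY1 was 0.89 above. SPRED1 was most like the ribosome assembly factor RPF2 (r = 0.976), the amino acid transporter SLC38A1 (0.974) and QTRT2, a subunit of a tRNA-modifying enzyme (0.972). These 3 genes differed from 0 h by at most 0.16 in size at 0.5 and 1 h and by 1.15, 1.05 and 1.47 at 4 h. All 12 were chosen for their correlation, which is therefore a description.

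**Figure D5:**
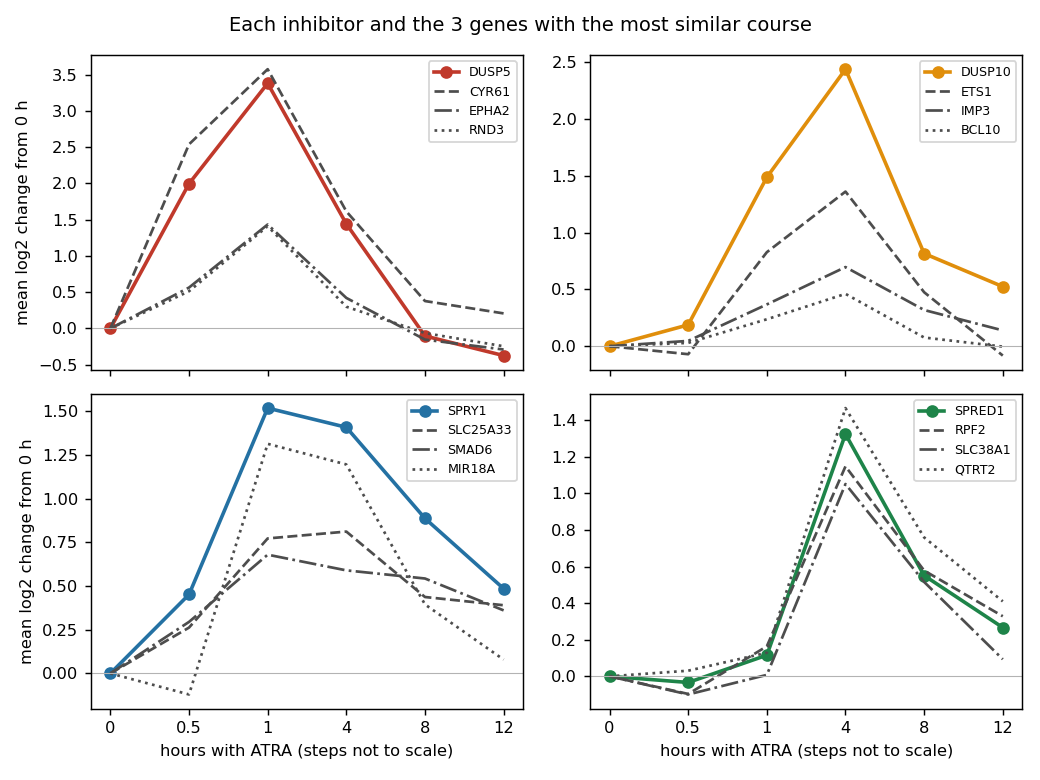
Mean log2 change from 0 h (3 arrays per time) of each inhibitor, in colour, and of the 3 genes with the highest correlation to it over the 18 arrays, in grey. CYR61 follows DUSP5 with a peak of 3.58 at 1 h, and RPF2, SLC38A1 and QTRT2 stay near 0 until 1 h and peak at 4 h with SPRED1.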

How the data were processed

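Total RNA was labelled with biotin and hybridized to Affymetrix arrays, per the labels. The deposited values are log2 signals, 1 per probe set and array, made by the authors with Transcriptome Analysis Console 2.0.0.9, per the submitters' processing notes; summarization, normalization and genome build are not given in the sources used here, so no positions or sequences are stated. Values were used as deposited, with no filter or offset. Symbols came from the platform annotation, updated by Entrez identifier through RefSeq (12925 of 13323 probe sets with 1 symbol found, 7 symbols changed); 357 probe sets with several symbols and 13878 with none were not named. A gene with several probe sets was represented by the one with the highest mean.

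The 18 arrays were fitted in limma 3.58.1 under R 4.3.3 with a separate mean for each time (eBayes, 12 residual degrees of freedom), and the procedure was tested on simulated data. Tests were two-sided. Precision is limited by the number of arrays, and the median SE of a difference was 0.149. The labels call the replicates biological and do not say how cultures were separated. The p-values set each difference against the spread between these samples within a time point. The main fit treats the arrays as independent and takes no account of replicate numbers.

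The members and gene lists were chosen with earlier results of these data known. Genes named are the 4 members, called members of the lists against 0 h or members needed to account for a list, and the 3 genes most correlated with each member among genes called by the F test. Uncalled list genes named besides were chosen after their values were seen.

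Replicate numbers were checked for pairing: 39 of 45 correlations of same-numbered deviations from the time means were over 0.1 (-0.0474 to 0.507), including all 3 of each comparison among 0, 0.5, 1 and 4 h and of the step from 4 to 8 h, but not those of 8 or 12 h with 0 h or of the step from 8 to 12 h. In 78 of 90 cases an array correlated best with its own number. Alternatives were the replicate block, a fit of the 2 times alone, dim probe sets left out (mean under 3.77), quantile normalization, a trended robust prior, and leaving out each replicate number or array.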

Additional observations from a re-analysis of the deposited data

How the results depend on the processing

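Over 224 refits of the 16 changes called among the 4 genes, the direction was the same in 224 and the call in 171. With the replicate block, the number of probe sets called moved from 211 to 322 at 1 h, from 1681 to 3191 at 8 h and from 728 to 1943 at 12 h against 0 h, from 154 to 248 in the step from 0.5 to 1 h, and from 911 to 2178 in that from 4 to 8 h. For the 4 genes the block changed 1 call, that of DUSP10 at 1 h (1.49, adjusted p = 0.0348). A fit of the 2 times alone, with fewer arrays to estimate the spread, called 1378 probe sets at 4 h and 229 at 8 h against 0 h, 67 in the step from 0.5 to 1 h, 585 in that from 1 to 4 h and 0 in that from 4 to 8 h. In that setting DUSP10 was called at 1 h (1.49) and from 0.5 to 1 h (1.30). The calls lost there were SPRY1 (0.89) and SPRED1 (0.55) at 8 h, DUSP5 (1.38) and SPRY1 (1.07) from 0.5 to 1 h, and DUSP5 (-1.55), DUSP10 (-1.62) and SPRED1 (-0.77) from 4 to 8 h. With dim probe sets left out DUSP10 was called at 1 h (1.49, adjusted p = 0.0479). Quantile normalization and the trended robust prior changed no call of the 4 genes.

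Leaving out 1 array or 1 replicate number, the count of called probe sets ranged from 8 to 63 at 0.5 h, 47 to 226 at 1 h, 264 to 5111 at 4 h, 4 to 2111 at 8 h and 2 to 728 at 12 h against 0 h. In the steps it ranged from 0 to 120 (0.5 to 1 h), 211 to 4213 (1 to 4 h) and 0 to 2243 (4 to 8 h). The log2 change of DUSP5 ranged from 1.78 to 2.30 at 0.5 h, 1.24 to 1.72 at 4 h, -0.25 to 0.036 at 8 h, 1.08 to 1.71 from 0.5 to 1 h and -1.82 to -1.28 from 4 to 8 h. That of DUSP10 ranged from 1.30 to 1.63 at 1 h, 1.98 to 3.00 at 4 h, 0.56 to 1.07 at 8 h, 1.18 to 1.52 from 0.5 to 1 h, 0.64 to 1.51 from 1 to 4 h and -2.18 to -1.31 from 4 to 8 h. That of SPRY1 ranged from 1.27 to 1.84 at 1 h, 1.20 to 1.61 at 4 h, 0.60 to 1.10 at 8 h, 0.90 to 1.19 from 0.5 to 1 h, -0.26 to 0.17 from 1 to 4 h and -0.84 to -0.24 from 4 to 8 h. That of SPRED1 ranged from -0.13 to 0.067 at 0.5 h, -0.00011 to 0.21 at 1 h, 0.42 to 0.64 at 8 h, -0.0104 to 0.27 from 0.5 to 1 h and -0.99 to -0.61 from 4 to 8 h. The changes of sign were all in differences that were not called. The cause of the other shifts was not tested. The alternative of averaging a gene's probe sets was not run, since each of the 4 genes has 1.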
